A study of Mus musculus with 221 samples.

Results

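The nuclear genes for subunits of respiratory chain complexes II, III and IV, of ATP synthase (complex V) and of cytochrome c were followed in single mouse embryos at the early 2-cell stage. Members were chosen by symbol alone: Sdha to Sdhd, every Uqcr gene, Cyc1, Cycs, every Cox4 to Cox8 gene and every Atp5 gene, without symbols marked as pseudogenes. The rule took 50 of the 55291 genes in the count table, with 4 in complex II, 9 in complex III, 1 for cytochrome c, 19 in complex IV and 17 in complex V. Each embryo came from in vitro fertilization of an oocyte of the C57BL/6N-mtST strain, which combines a C57BL/6N nucleus with Staudach mitochondrial DNA, with frozen and thawed sperm of a C57BL/6N male. The males, killed at 8 weeks of age, had eaten a high-fat diet (HFD, 55.2% of the embryos) or a low-fat diet (LFD, 99 embryos, 44.8%) for 2 weeks, and all embryos shared the oocyte strain. Per the study's methods, 4 males per diet gave the sperm, with an HFD and an LFD male on each date and other males on the next. The labels tie no embryo to its sire or date, so each embryo counted as independent, and sires are not part of any p-value.

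Complex II (succinate dehydrogenase) takes electrons from succinate in the citric acid cycle. Complex III passes them to cytochrome c, and complex IV (cytochrome c oxidase) hands them to oxygen. ATP synthase uses the proton gradient that the chain builds. Complex II is encoded wholly in the nucleus, while complexes III, IV and V join nuclear subunits to a few subunits made in the mitochondrion. Several complex IV subunits have 2 or more nuclear genes, of which some are known for heart and skeletal muscle, lung or testis. The early mouse embryo lives largely on respiration of pyruvate, with mitochondria inherited from the oocyte.

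The total count of an HFD embryo was between 2296020 and 13155271, and that of an LFD embryo between 1937251 and 17246791. Each library was made from 1 embryo by Smart-seq2, a PCR-based method for polyadenylated RNA, so PCR copies cannot be told from separate molecules and any floor given covers counting error only. Oocyte and 2-cell markers were abundant, with a median of 335 counts of Gdf9 per 1000000 counts of the embryo (CPM) in HFD and 346 in LFD embryos. Of 7 sperm markers, Prm2 and Akap4 had medians up to 0.692 CPM and the other 5, Prm1 among them, a median of 0 in both diets. Of 9 cumulus and granulosa markers, Cyp19a1 (medians of 6.64 with HFD and 6.20 with LFD sires) and Tnfaip6 (4.94 and 4.15 CPM) were detected in most embryos, Amh had medians of 0.390 and 0, and the other 6, Ptx3 among them, a median of 0 in both. The summed level of 14 macrophage markers lay between 3.83 and 12.6 log2 CPM with HFD sires (median 6.32) and between 5.47 and 7.29 with LFD sires (median 6.29), and 12 HFD embryos lay above the LFD range. Of those 14, 9 had a median above 0 in both diets, led by Csf1r (21.5 and 20.9 CPM) and Apoe (16.4 and 16.2 CPM). The other 5 (Adgre1, C1qa, C1qc, Fcer1g and Tyrobp) had a median of 0 in both, and 0 LFD embryos had a C1qc count. In 4 embryos of each diet few genes were detected, with fewer than 15190 genes having a count.

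Levels of different genes were compared as TPM, which are counts divided by the exonic length of the gene and scaled to a sum of 1000000 in each embryo. The 50 members together held a median of 4279 TPM per embryo, with 4263 in HFD and 4317 in LFD embryos. Complex IV took 69.5% of this sum, complex V 20.9%, complex III 6.30%, complex II 2.06% and cytochrome c 1.08%. One gene, Cox8a, accounted for 53.7% of the complex IV level. The typical member was less uneven, since the median over members of their median level was 54.6 TPM in complex IV, 21.3 in V, 19.2 in III and 9.08 in II.

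**Figure D1:**
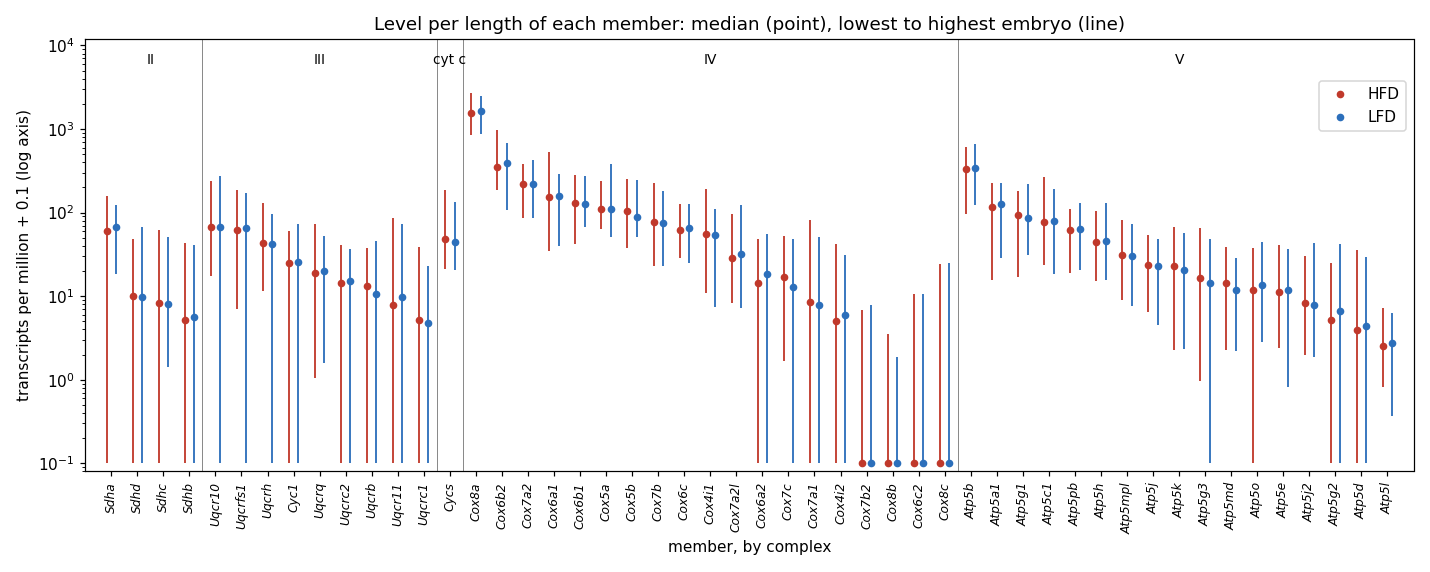
Level per length of all 50 members in TPM (0.1 added) on a log axis, by complex; points are medians over HFD (red) or LFD (blue) embryos and lines run from the lowest to the highest embryo. Cox8a stood highest with medians of 1546 and 1644 TPM, and Cox7b2, Cox8b, Cox6c2 and Cox8c had a median of 0 in both diets.

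Cox8a, a small subunit of complex IV, ranked first and was above the next gene in every embryo. Cox6b2 came next with a median of 364 TPM and Atp5b, the catalytic beta subunit of ATP synthase, followed with 332. These neighbours overlapped, as Cox6b2 was above Atp5b in 131 embryos (59.3%), and by main transcript length Atp5b ranked above Cox6b2. Atp5b was above Cox7a2, a complex IV subunit, in 204 embryos (92.3%). From there to Atp5l, the last of the 46 members with a median above 0, each gene was above the next in 46.6% to 83.7% of embryos. Most neighbours in that order therefore did not differ beyond the spread between embryos.

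In complex II the subunits were far apart. Sdha, the flavoprotein that oxidizes succinate, ranged from 0 to 156.98 TPM in HFD embryos with a median of 60.8, and from 18.6 to 124.6 with a median of 66.9 in LFD embryos. The iron-sulfur subunit Sdhb had medians of 5.07 and 5.55 TPM, and the membrane anchors Sdhc and Sdhd had medians of 8.28 and 8.01, and of 10.01 and 9.68. Sdha made up 70.98% of the level of the complex, although the 4 proteins form it in equal numbers.

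In complex III, by exonic length, Uqcr10 and Uqcrfs1 had the highest medians. Uqcr10, a small subunit, had a median of 66.8 TPM in HFD embryos (17.4 to 240) and 66.5 in LFD embryos (0 to 278). Uqcrfs1, the Rieske iron-sulfur protein, had a median of 62.2 (6.91 to 185) in HFD and 65.9 (0 to 173) in LFD embryos. Uqcr10 was above Uqcrfs1 in only 54.3% of embryos, so the lead of either was within the spread. Uqcrh, the hinge protein, had a median of 42.7 TPM over all embryos, and by main transcript length it ranked above both, at rank 15 among members against 20 for Uqcr10 and 21 for Uqcrfs1. Cyc1, the cytochrome c1 subunit, had an overall median of 25.3 TPM, and the core protein Uqcrc1 was lowest with 4.84. Cytochrome c itself was read mostly from the somatic gene Cycs, which had a median of 48.7 TPM in HFD (21.2 to 184) and 44.8 in LFD embryos (20.7 to 134). The testis form Cyct, which is no member and is given only for this comparison, had medians of 1.45 and 2.12 TPM and a count in 139 embryos.

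Complex IV held the clearest departure from the common isoforms. Subunit 6b has a common gene, Cox6b1, and Cox6b2, best known from testis. Cox6b2 had a median of 347 TPM in HFD embryos (185 to 979) and of 394 in LFD embryos (106.2 to 675). Cox6b1 had medians of 131.8 (42.1 to 283) and 126.6 (67.6 to 275) TPM. The testis isoform was the higher of the pair in every embryo, by a mean log2 ratio of 1.43 ± 0.49 (SD) in HFD and 1.54 ± 0.48 (SD, n = 99) in LFD embryos. The ratio of the medians was 2.78, and with the main annotated transcript in place of all exonic bases the order held in every embryo, at a mean log2 ratio of 2.20.

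The other testis isoforms, and Cox8b and Cox6c2, were at or near the limit of detection. Cox8c, a testis form of subunit 8, had a median of 0 TPM and a highest embryo of 23.96 in HFD and 24.96 in LFD, with a count in 57 HFD and 45 LFD embryos. Cox7b2, a testis form of subunit 7b, had a count in 38 embryos and 160 counts in all, against 53304 counts of Cox7b. Cox8b, the subunit 8 form of heart and skeletal muscle, had 4 counts over 2 embryos, next to 509268 counts of Cox8a. Cox6c2, whose 231 exonic bases resemble Cox6c (7.20% of stretches of 100 bases of the main Cox6c transcript occur in it), had a count in 40 embryos. An embryo without a count could still hold up to 0.526 CPM at the median depth (3 counts), and more than that where both reads of a pair would have been counted.

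Unlike Cox8b, the muscle and lung isoforms of subunits 4, 6a and 7a were detected in most embryos. They stayed below their common partners in every embryo. Cox4i2, the lung form of subunit 4, had medians of 4.88 TPM (0 to 42.2) in HFD and 5.83 (0 to 30.9) in LFD embryos, against 55.95 and 53.6 of Cox4i1. Cox6a2, the heart and muscle form of subunit 6a, had medians of 14.4 and 18.1 TPM, against 153 and 160 of Cox6a1. Cox7a1, the heart and muscle form of subunit 7a, had medians of 8.35 and 7.82 TPM, against 220 in both diets of Cox7a2. The ratios of overall medians were 10.51 for Cox4i1 over Cox4i2, 9.57 for Cox6a1 over Cox6a2 and 27.3 for Cox7a2 over Cox7a1. Cox6a2 shares 10.3% of its exonic bases with exons of a gene on the other strand, Itgad, which had a median of 0.176 CPM.

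**Figure D2:**
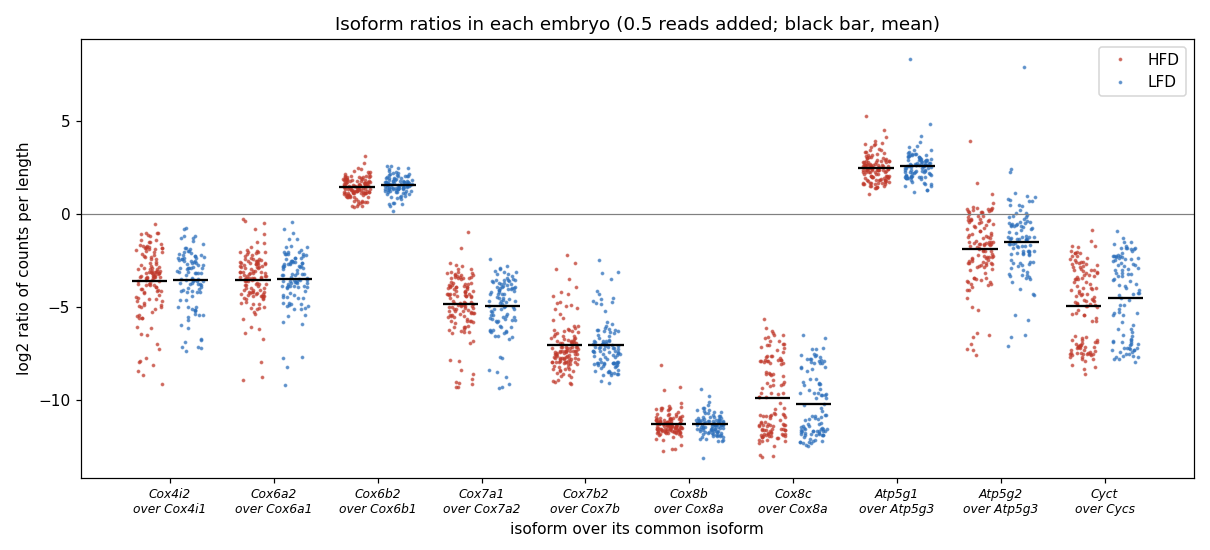
Log2 ratio of the counts per exonic length (0.5 reads added), 1 point per embryo, HFD (red) and LFD (blue, n = 99), black bars at the means. Shown are tissue or testis isoforms over their common isoforms, and Atp5g1 and Atp5g2 over Atp5g3 as the chosen reference. Cox6b2 and Atp5g1 lay above 0 in every embryo, Atp5g2 in 35, and the other 7 ratios in 0.

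The bases before the start sites of the subunit 6b pair and of Cox8a are shown because Cox6b2 and Cox8a had the highest correlation of any pair of members, while Cox6b1 is the lower paralog. Cox5b is added as the 1 member that passed the test between the diets. The stretches are RefSeq sequence of build GRCm38.p6, 5′ to 3′ on the gene's strand, within 250 bases before the start site and outside every exon of the count table. They are 131 bases for Cox6b2 (chr7:4753095-4753225, minus strand), 213 for Cox6b1 (chr7:30626152-30626364, minus strand), 250 for Cox8a (chr19:7217617-7217866, minus strand) and 212 for Cox5b (chr1:36691237-36691448, plus strand). Capitals mark CCAAT on either strand.
Cox6b2: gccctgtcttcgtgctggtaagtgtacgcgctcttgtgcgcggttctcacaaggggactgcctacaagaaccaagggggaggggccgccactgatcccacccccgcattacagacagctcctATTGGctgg
Cox6b1: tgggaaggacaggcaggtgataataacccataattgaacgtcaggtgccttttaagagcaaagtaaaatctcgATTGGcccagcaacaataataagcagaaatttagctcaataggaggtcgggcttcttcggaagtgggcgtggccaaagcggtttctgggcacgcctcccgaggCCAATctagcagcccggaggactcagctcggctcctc
Cox8a: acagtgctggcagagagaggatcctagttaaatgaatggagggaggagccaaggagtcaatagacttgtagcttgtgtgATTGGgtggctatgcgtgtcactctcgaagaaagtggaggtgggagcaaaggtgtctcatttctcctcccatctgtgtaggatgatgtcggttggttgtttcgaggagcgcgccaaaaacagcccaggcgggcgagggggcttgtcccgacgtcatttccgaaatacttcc
Cox5b: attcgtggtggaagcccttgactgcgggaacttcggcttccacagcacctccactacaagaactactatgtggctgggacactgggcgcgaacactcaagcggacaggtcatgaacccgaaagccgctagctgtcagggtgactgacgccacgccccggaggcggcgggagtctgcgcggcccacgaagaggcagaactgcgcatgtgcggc

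These letters held 1 CCAAT in the Cox6b2 stretch, 2 in Cox6b1, 1 in Cox8a and 0 in Cox5b, and none held the NRF1 motif GCGCNTGCG or the ETS motif CCGGAAG. Over the full 250 bases, searched on both strands, CCAAT occurred in 22 of 40 member promoters (37 genes matched by symbol) and in 33.9% of all 32851 promoters of the table. GCGCNTGCG occurred in 10 and in 5.19% of all, and CCGGAAG in 9 and in 6.91%. Over those 250 bases, exonic ones included, Cox6b2 held 2 CCAAT and Cox6b1 held 1 CCGGAAG, so Cox6b1 is one of the 9. The YY1 motif AAGATGGCG occurred in 1 and in 0.606%. A match is a description of the letters and no evidence that a factor binds there. Upstream of Cox6b2 the nearest exon belongs to Fam71e2, on the same strand and ending 131 bases away, which had a count in 17 embryos and a highest level of 3.52 CPM.

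In ATP synthase the catalytic core led. Atp5b had a median of 330 TPM in HFD embryos (96.99 to 608) and 337 in LFD embryos (122.8 to 658). Atp5a1, the alpha subunit, had 117.6 (15.3 to 227.6) and 127.9 (28.4 to 223.1) TPM. Both proteins occur in equal numbers in the enzyme, while their transcripts differed by the ratio of overall medians of 332 to 123.5 TPM. Atp5d, the delta subunit of the central stalk, had 3.95 TPM, and Atp5l, a membrane subunit, was lowest with 2.52. The value of Atp5l rests on a long exonic annotation of 6443 bases, next to a main transcript of 544, and with the latter its rank among members moved from 46 to 31. Of stretches of 100 bases in that transcript, 61.4% also occur in 5 other annotated genes, so its level is uncertain.

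The ring of c subunits, which turns with the proton flow, is encoded by 3 genes that give the same mature protein. Atp5g1 had a median of 93.9 TPM in HFD embryos (17.02 to 183) and 85.5 in LFD embryos (31.04 to 217.6). Atp5g3 had 16.5 (0.863 to 64.9) and 14.5 (0 to 48.9) TPM, and Atp5g2 had 5.05 (0 to 24.6) and 6.50 (0 to 41.6). Atp5g1 gave a median of 79.5% of the summed level of the 3 genes per embryo, Atp5g3 14.1% and Atp5g2 5.06%, and it was above Atp5g3 in every embryo. By main transcript length the shares were 59.03%, 30.4% and 8.24%, and Atp5g1 was above Atp5g3 in 208 embryos. Of stretches of 100 bases in the main Atp5g2 transcript, 86.4% also occur in 2 other annotated genes, Gm10175 and Gm10231. Reads that aligned to more than 1 place were not counted, so the level of Atp5g2 is uncertain.

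The question of the design was whether these transcripts differ with the diet of the father. Of the 50 members, 46 passed the low-count filter, and 1 was higher in HFD embryos and 0 lower at a false discovery rate (FDR) under 0.05 (edgeR quasi-likelihood test, Benjamini-Hochberg adjustment over 14820 genes). Over all genes tested, 2.15% were called, with 1.26% higher and 0.891% lower in HFD embryos, and the share of members called (2.17%) was close to that background. The called member was Cox5b, a complex IV subunit on the matrix side of the membrane. At an unadjusted p under 0.05, 11 members were higher and 0 lower, against 7.51% and 5.57% of all genes.

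Most members had a small positive value. The log2 fold change (HFD over LFD) was above 0 for 38 of the 46 members and for 54.03% of all genes, and its median was 0.10 over members and 0.01 over all genes. Genes of like exonic length (1114 to 3036 bases, the middle of the members' range) had a median of 0.04 (n = 4225). The median over members was 0.01 in complex II, 0.16 in III, 0.09 in IV and 0.12 in V, with 2 of 4, 8 of 9, 13 of 15 and 14 of 17 members above 0. Differences between the complexes were not tested. No label marks the HFD embryos numbered 31 to 70 as a batch, and this range was set with earlier results of these data known. Leaving these embryos out is therefore no independent check. Without these 38 embryos the median over members was 0.05, against 0.02 over all genes, and 0 members were called. Without the 12 HFD embryos above the LFD range of macrophage markers it was 0.07 against 0.01, and Cox5b remained the only member called.

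**Figure D3:**
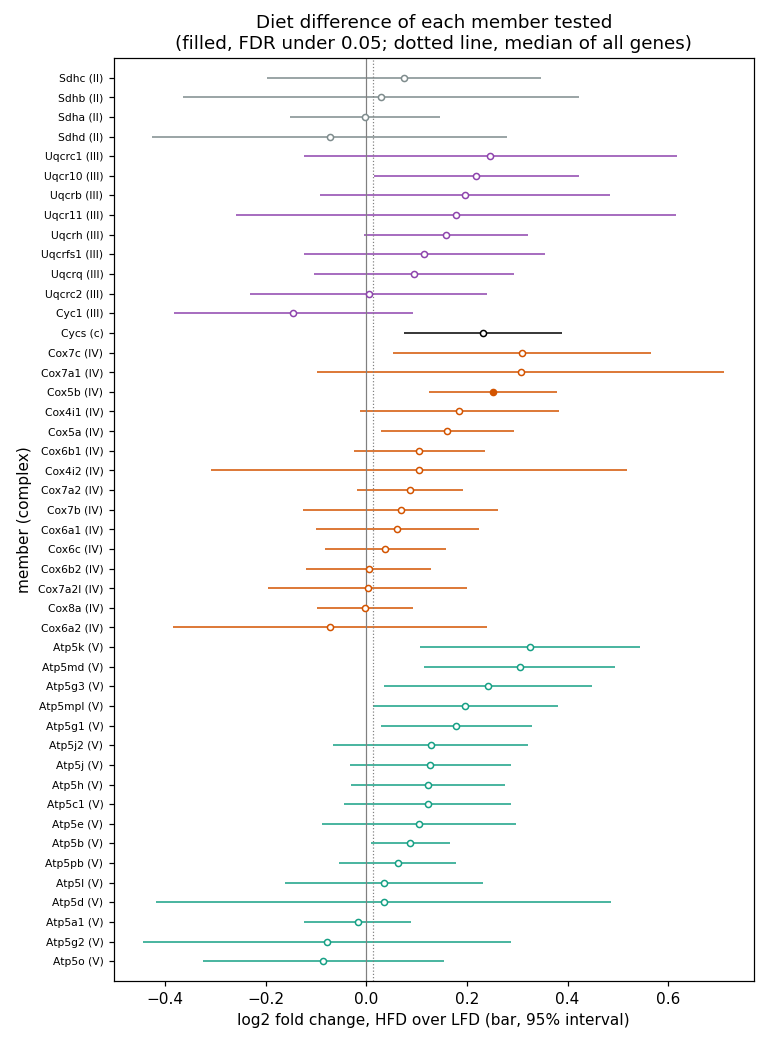
Log2 fold change (HFD over LFD, edgeR) of the 46 members tested, by complex, with 95% intervals; the filled point is the member with an FDR under 0.05 and the dotted line is the median of all genes tested. Cox5b is the only filled point, and 38 of 46 points lie above 0.

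Cox5b (chr1:36691449-36693681, plus strand, GRCm38) had a lowest, median and highest level of 22.7, 63.9 and 248 CPM in HFD embryos and of 33.8, 54.3 and 190 in LFD embryos. The diets overlapped over nearly the whole range, with 84 HFD embryos (68.9%) above the LFD median and 1 above the highest LFD embryo. Its log2 fold change was 0.25 ± 0.06 (SE), or 19.05% higher in HFD embryos, at FDR = 0.0126 (edgeR). Group means were 67.5 ± 25.2 CPM (SD) in HFD and 58.4 ± 20.05 (SD, n = 99) in LFD embryos. Of stretches of 100 bases in its main transcript, 8.09% also occur in another annotated gene, Gm11273.

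As the labels name no batch, embryos were also compared within runs of 10 embryo numbers, whether or not these shared a date. The samples are listed in blocks that alternate between the diets, and the number ranges cut across these blocks. A range is therefore no known batch, and the blocks were not used. Cox5b was higher in HFD embryos in 10 of the 11 ranges that held both diets, with differences of mean log2(CPM + 0.5) from -0.10 in numbers 21 to 30 to 0.53 in numbers 61 to 70. The 3 largest differences were in the ranges from 41 to 70. Without the HFD embryos numbered 31 to 70 the log2 fold change of Cox5b was 0.18 ± 0.07 (edgeR FDR = 0.276), and the call was lost. When ranges within each diet were a random effect (limma-voom) it was 0.24 ± 0.07 with FDR = 0.0712, which also lost the call. With the Y-linked level as a covariate it was 0.24 ± 0.07 (edgeR FDR = 0.0235). With the macrophage marker level as a covariate it was 0.23 ± 0.07 (edgeR FDR = 0.0345), and without the embryos above the LFD range of those markers 0.23 ± 0.07 (FDR = 0.0489).

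**Figure D4:**
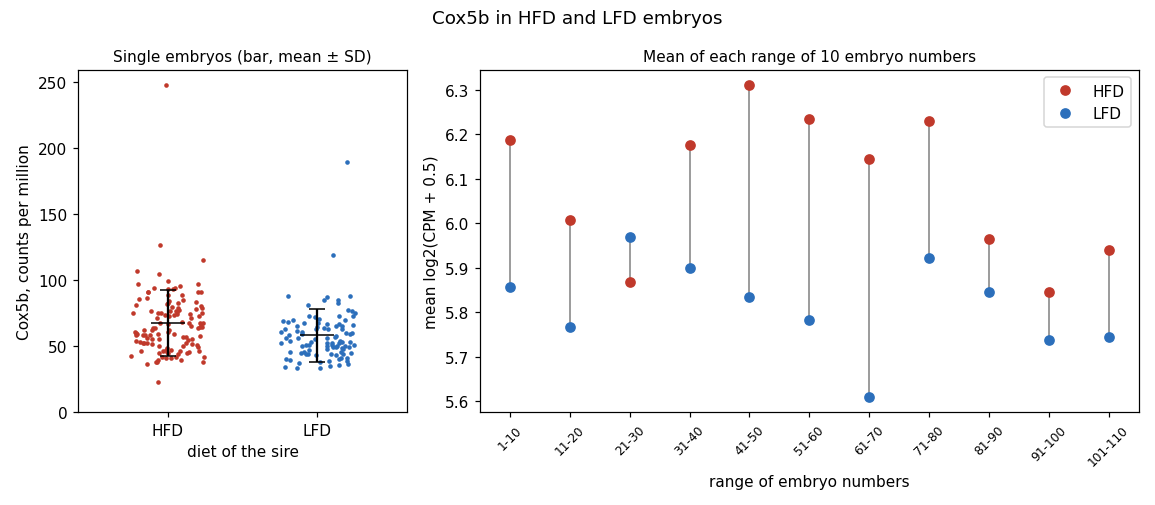
Cox5b in CPM in each embryo by diet of the sire, with mean ± SD (left), and mean log2(CPM + 0.5) of HFD (red) and LFD (blue) embryos in each range of 10 embryo numbers (right). HFD embryos had the higher mean in 10 of 11 ranges, and single embryos of the diets overlapped.

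Among the other members no difference passed the test, so their values are given without a direction. In cytochrome c, Cycs had a log2 fold change of 0.23 ± 0.08 (edgeR FDR = 0.108), with a lowest, median and highest CPM of 30.2, 64.5 and 276 in HFD and of 25.1, 58.9 and 227.1 in LFD embryos. It was called under 6 of 17 alternative settings, and 24.7% of the 100-base stretches of its main transcript occur in 3 other annotated genes. In complex V the largest value was 0.33 ± 0.11 (FDR = 0.106) for Atp5k, a membrane subunit of dimers, and the smallest -0.09 ± 0.12 (FDR = 0.841) for Atp5o, a peripheral stalk subunit. Atp5o overlaps exons of other genes on 31.1% of its exonic bases on the other strand. Atp5md, another small membrane subunit, was named after its value was seen, as the member closest to the threshold, with 0.30 ± 0.10 (FDR = 0.0713). It was called with DESeq2 (FDR = 0.0499) and without a low-count filter (edgeR FDR = 0.0226). Of the 17 alternatives, Atp5k and Atp5g1 were each called under 2. Cox5a, of complex IV, was called only without embryos with few genes. The catalytic Atp5b and Atp5a1 had 0.09 ± 0.04 (FDR = 0.311) and -0.02 ± 0.05 (FDR = 0.945).

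In complex IV the tested members ran from -0.07 ± 0.16 for Cox6a2 (FDR = 0.915) to 0.31 ± 0.13 for Cox7c (FDR = 0.244), a small subunit of which 44.4% of 100-base stretches occur in 2 other genes. The 2 members of complex IV with the highest levels per exonic length, Cox8a and Cox6b2, had log2 fold changes of 0.00 ± 0.05 and 0.00 ± 0.06, with 95% intervals from -0.10 to 0.09 and from -0.12 to 0.13. In CPM, 43 HFD embryos (35.2%) were above the LFD median for Cox8a and 42 (34.4%) for Cox6b2. The log2 differences of the median CPM were -0.09 and -0.14, and why they part from the fit was not tested. In complex III the values ran from -0.15 ± 0.12 for Cyc1 (FDR = 0.667) to 0.25 ± 0.19 for Uqcrc1 (FDR = 0.632), with 0.22 ± 0.10 for Uqcr10 (FDR = 0.338) and 0.12 ± 0.12 for Uqcrfs1 (FDR = 0.765). In complex II they ran from -0.07 ± 0.18 for Sdhd to 0.08 ± 0.14 for Sdhc, and Sdha had 0.00 ± 0.08, with FDR from 0.892 to 0.996. The remaining tested members lay between these ends in their complexes.

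The balance of isoforms did not differ detectably between the diets. For the 7 pairs in which both genes had a count in at least 50% of embryos, the difference in mean log2 ratio was tested by 2-sided permutation (100000 resamples), and 0 pairs passed after adjustment over the 7, with 0 also under an unadjusted p of 0.05. Under the alternatives 0 passed after adjustment, while 3 differences had an unadjusted permutation p under 0.05: -0.26 for Atp5g1 over Atp5g3 without HFD numbers 31 to 70 (p = 0.0191), and, with the embryo number as a replicate block, -0.67 for Atp5g2 over Atp5g3 (p = 0.0168) and -0.66 for Cyct over Cycs (p = 0.0310). For Cox6b2 over Cox6b1 the difference (HFD minus LFD) was -0.11 ± 0.07 (SE), with a 95% interval from -0.24 to 0.01 (permutation p = 0.0841, adjusted p = 0.307). For Cyct over Cycs the difference was -0.45 ± 0.29 (adjusted p = 0.307) and for Atp5g2 over Atp5g3 it was -0.40 ± 0.26 (adjusted p = 0.307). Atp5g1 over Atp5g3 gave -0.13 ± 0.11 (adjusted p = 0.373). For Cox4i2, Cox6a2 and Cox7a1 over their common partners the differences were -0.08 ± 0.22, -0.02 ± 0.20 and 0.11 ± 0.21, with adjusted p from 0.838 to 0.902. Their 95% intervals ran from -0.52 to 0.36, from -0.41 to 0.36 and from -0.30 to 0.52, so shifts of the rarer isoforms within them were not resolved. Cox7b2, Cox8b and Cox8c had too few counts for a test.

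Partner genes of the same complexes gave the following counts in the same fit. All 6 mitochondrially encoded subunits of complexes III, IV and V were called higher in HFD embryos, with log2 fold changes from 0.30 for mt-Co2 to 0.57 for mt-Atp8. Their overall median levels ran from 5070 TPM for mt-Atp8 to 26725 for mt-Atp6, all above that of Cox8a. Of 42 genes listed as assembly or related factors of complexes II to V, 37 were tested and 0 were called, with a median of 0.06. Of 41 genes taken as complex I subunits by symbol alone (Nduf, not Ndufaf), 35 were tested and 3 were called higher, with a median of 0.13. At an unadjusted p under 0.05, 4 of the 37 listed factors and 7 of the 35 Nduf genes were higher and 0 of either lower. Of all genes, 7.51% were higher and 5.57% lower at that threshold. At an FDR under 0.05, 1.26% of all genes were called higher. The lists were not tested against the members, and their calls under the alternative settings were not examined.

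The spread between embryos of the same diet was smallest for Atp5b and Cox8a. For the 32 members with a median count of at least 50, the SD of log2(CPM + 1) within diets had a median of 0.63, next to 0.70 over the 8909 genes with such a count. Atp5b had the lowest SD of the members with 0.28, which only 0.752% of those genes undercut, and Cox8a came next with 0.32. The highest were Uqcrfs1 with 0.98 and Cyc1 with 0.97, both of complex III. Median counts were 3128 for Atp5b and 190 for Uqcrfs1, and the part of depth in this ranking was not tested. Cox6b1, with a median count of 210, had an SD of 0.48.

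Correlation across embryos between members of 1 complex varied from pair to pair, with r from -0.29 to 0.77. With each diet centred on its mean, the median Pearson r over all embryos was 0.23 for 137 pairs within a complex and 0.14 for 359 pairs across complexes. These values are a description, as all genes of an embryo share its library and depth. They were not set beside pairs of other genes or adjusted for counting error. The highest was 0.77, between Cox6b2 and Cox8a. Cycs and Atp5g1 followed with 0.71, and Atp5g1 and Atp5j, a peripheral stalk subunit, with 0.67. Of the exonic bases of Atp5j, 12.7% overlap exons of Gabpa on the other strand, which had a median of 327 CPM against 28.5 for Atp5j, and its part in this value was not tested. Atp5b had its highest values with Atp5a1 (0.45) and Sdha (0.42), and -0.42 with Cox5a. Of the exonic bases of Cox5a, 12.8% overlap exons of Gm26631 on the other strand. That gene had a median of 48.9 CPM against 92.2 for Cox5a, and its part in this value was not tested. Sdha had negative values with Cycs (-0.53) and Atp5g1 (-0.41). The number of genes detected in an embryo moved with several of these members, with r of 0.43 for Sdha, 0.32 for Atp5a1, -0.39 for Cox5b, -0.41 for Atp5g1 and -0.60 for Cycs, and its part in the correlations was not tested.

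**Figure D5:**
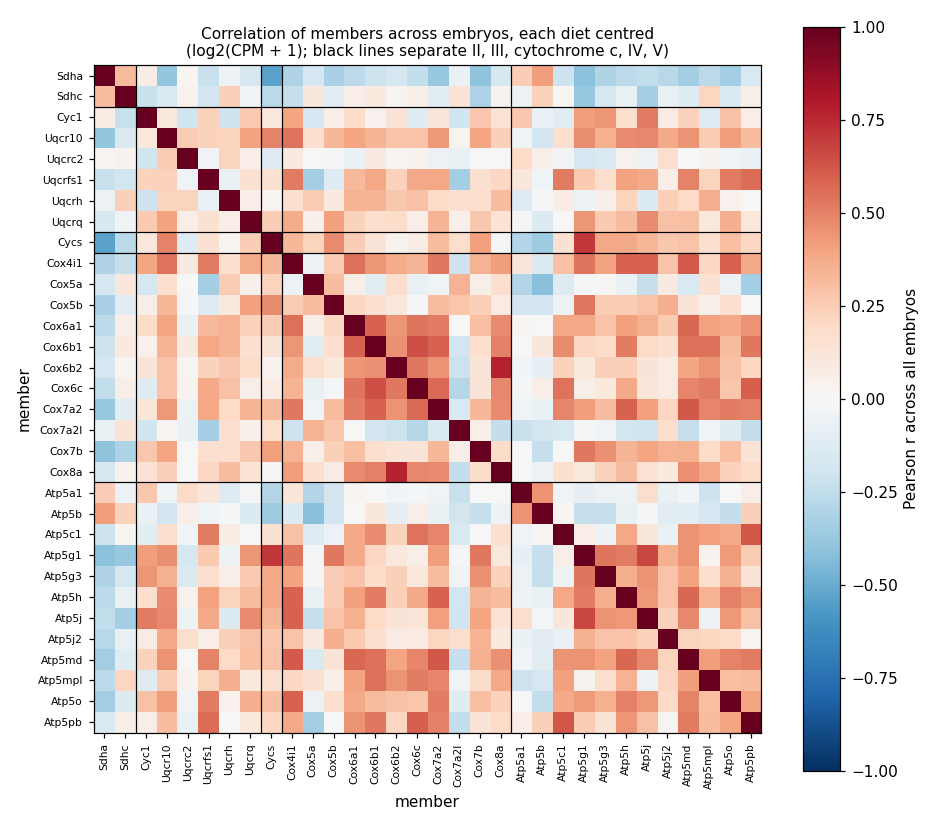
Pearson r of log2(CPM + 1) across all embryos between the 32 members with a median count of at least 50, each diet centred on its mean, red above and blue below 0, with black lines between complexes. The darkest square off the diagonal is Cox6b2 with Cox8a (0.77), and the row of Sdha is mostly blue.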

How the data were processed

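Single 2-cell embryos (122 HFD and 99 LFD, 221 in all, grouped by title and treatment label) were profiled by Smart-seq2 with paired-end sequencing. Per the submitters' processing notes and the study's methods, the authors trimmed reads with Trim Galore 0.6.6, aligned them with STAR 2.7.10a to GRCm38 carrying the Staudach mitochondrial sequence, and, per the file headers, counted them over Ensembl exons with featureCounts 2.0.3. The deposited counts were raw, whole numbers per gene. The strand setting was 2 (reverse strand), although Smart-seq2 does not mark strand, so reads from a gene and from exons on its other strand cannot be told apart. Each read of a pair was counted by itself, and 65.8% of counts above 0 were even.

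Counts were tested with edgeR 4.0.16 (quasi-likelihood, TMM, filterByExpr by diet) in R 4.3.3. TPM and CPM were computed from the counts. Pairs of isoforms were compared by permutation with 0.5 reads added. Alternatives used DESeq2 1.42.0, limma 3.58.1 and other choices. The edgeR test was tested on simulated data for this comparison (14317 genes), where it recovered 24.5% of changes of 0.25 and 95.7% of changes of 1 on the log2 scale. Named genes are called members, isoform pairs, and in each complex the 2 most abundant and those with the largest and smallest fold change. The members and lists were chosen with earlier results of these data known. Overlaps with copies used GENCODE M21 transcripts, of which 48 members had a main one, and promoters came from RefSeq. Complex I, assembly factors and mitochondrial subunits serve as context. Every sample column was used.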

Additional observations from a re-analysis of the deposited data

How the results depend on the processing

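Depth limited the members with few counts, of which 4 were not tested, and sires cannot be told apart from diet. Alternatives chosen after seeing the data were ranges within each diet as a random effect, recomputed library sizes, leaving out the 12 embryos above the LFD range of macrophage markers, the unblocked fit of the same embryos, and main transcript length.

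The count of members called was 1 in the fit reported. It was 2 with DESeq2, with number ranges as fixed blocks and with the number of genes as a covariate, 4 without embryos with few genes (8.70% of 46 members, 3.66% of all genes), 4 without a low-count filter (8% of 50 members, 15.4% of 45512 genes), and 0 without HFD numbers 31 to 70 and with ranges within each diet as a random effect. Of all genes, 318 were called in that fit, and 7030 without a filter, 591 with number ranges as fixed blocks, 546 without embryos with few genes, 193 without embryos above the macrophage range, 175 without HFD numbers 31 to 70 and 86 with ranges within each diet. The call of Cox5b was kept under 15 of 17 alternatives, with log2 fold changes from 0.23 to 0.33. It was lost at 0.18 without HFD numbers 31 to 70 and at 0.24 with ranges within each diet. The median over members ran from 0.05 to 0.13 and kept its sign. RLE scaling moved the median of all genes from 0.01 to 0.00.

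Embryos of the same number are paired by name only. Over 94 numbers found in both diets their deviations correlated with a median of 0.01, and only 1 HFD embryo correlated best with its own number. With the number as a replicate block (188 embryos, 1 dispersion for all genes to keep the fit short) 2 members and 503 genes were called, and 4 members and 633 genes in the same embryos without the block. The replicate block gave reversed signs of -0.026 for Cox6a1, -0.085 for Cox6b2 and -0.039 for Sdhc, and isoform differences of 0.065 for Cox4i2 and 0.031 for Atp5g1, all without a call. Without the block in those embryos Cox6b2 had -0.047.

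Values near 0 changed sign without a call. Cox6b2 had -0.0037 with DESeq2 and with RLE, -0.0067 without a filter, -0.014 with limma-voom, -0.022 with ranges as a random effect, -0.017 with ranges within each diet, -0.0077 with recomputed library sizes, -0.029 with ranges as fixed blocks, -0.010 with the Y-linked level as a covariate and -0.0033 without embryos with few genes. Sdhc had -0.029, -0.039 and -0.026 under the 3 limma-voom fits. Sdha had 0.010 with the Y-linked level, 0.0042 without embryos with few genes and 0.0071 without embryos above the macrophage range. Cox8a had 0.0019 with the number of genes as a covariate and 0.0042 without embryos above the macrophage range. Without HFD numbers 31 to 70, Cox7a1 had -0.060, Cox7b -0.077, Atp5g2 0.062, Sdha 0.14, Sdhd 0.11, Uqcrc1 -0.034 and Atp5a1 0.084. Isoform differences there were 0.11 for Cox4i2, 0.15 for Cox6a2 and -0.13 for Cox7a1, and without embryos above the macrophage range 0.034 for Cox6a2. No isoform pair passed after adjustment under any of its alternatives. Mean log2 ratios of levels kept their direction in all 10 pairs. Those that moved beyond the spread were Cox6b2 over Cox6b1 (2.13 without length, 2.20 by main transcript), Atp5g1 over Atp5g3 (3.68 and 0.97), Cox8b over Cox8a (-12.06 without length) and Cyct over Cycs (-7.12 without length). Causes of these changes were not tested.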
